A study of Sus scrofa with 15 samples.

Results

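Chemokines that intestinal epithelial cells can release were followed across 15 RNA sequencing libraries of IPEC-J2, a non-transformed epithelial line from the jejunum of a newborn pig. The genes are CCL20, CCL5, CCL2, CXCL8, CXCL2, CXCL10, CXCL16, CX3CL1 and CCL28. They were taken by name and matched to the tables by NCBI Gene number, and all 9 have a row among the 19000 genes of the knockdown table and the 17001 of the overexpression table. The rule that picks them uses no measured value, although the set was drawn up with earlier results of these data known.

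Every library came from cells carrying a lentiviral vector, the controls included. The knockdown table holds Lv3NC, the control vector for knockdown, Lv133KD, directed at the microRNA miR-133, and Lv143KD, named for miR-143 in its label although the design text gives miR-133 as its target. The overexpression table holds Lv20NC, the control vector for overexpression, and OV143, the vector meant to raise miR-143. The level of miR-143 itself was not examined here. Each of the 5 groups has 3 libraries with replicate numbers 1 to 3. The labels do not say how long the cells carried the vectors, whether a group is 1 transduced pool or clone, or whether its libraries came from separate cultures, so p-values cover no more than the variation among the libraries at hand, some or all of which may be technical.

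Chemokines are small secreted proteins that draw leukocytes along a concentration gradient through G protein-coupled receptors. Epithelial cells of the gut make several of them when bacteria, cytokines or damage activate the transcription factor NF-kB, and others when interferons act on them. CCL20 attracts dendritic cells and lymphocytes that carry CCR6, CXCL8 and CXCL2 attract neutrophils, CCL2 attracts monocytes and CCL5 attracts T cells and monocytes. CXCL10 attracts activated T cells and is a typical interferon-induced gene. CXCL16 and CX3CL1 are made as membrane-bound proteins and shed by proteases, and CCL28 is a mucosal chemokine for antibody-secreting cells.

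On the Sscrofa11.1 build, the CXC genes CXCL8 (NCBI Gene 396880; chromosome 8, 69932646 to 69935861), CXCL2 (414904; chromosome 8, 70157253 to 70159145) and CXCL10 (494019; chromosome 8, 71693641 to 71695948) lie on one chromosome. CXCL8 and CXCL2 are 221 kb apart. CCL5 (396613; chromosome 12, 39652731 to 39659121), CCL2 (397422; chromosome 12, 40798109 to 40800013) and CXCL16 (396735; chromosome 12, 52145100 to 52150267) share another. The others lie on chromosomes of their own, CCL20 (553951; chromosome 15, 129172743 to 129176069), CX3CL1 (100621027; chromosome 6, 19312351 to 19324439) and CCL28 (554303; chromosome 16, 27990024 to 28010859).

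Levels are in FPKM, a read count scaled by transcript length and library size that keeps no read total, so the depth behind each value is unknown. FPKM sums lay between 486086 and 558042 apart from OV143 replicate 2, at 662022. Of the epithelial markers, KRT8 lay between 519.95 and 1030.3 FPKM and EPCAM between 267 and 718 FPKM. Of the 10 leukocyte markers, AIF1 was the most abundant, at 7.94 to 13.7 FPKM in the knockdown table and 22.0 to 31.3 FPKM in the overexpression table, and CD68 and CD14 were also detected. PTPRC was listed at 0 in every knockdown-table library, and CD163 was at 0.02 FPKM or less in all 15. The 2 tables were normalised separately, and a gene can also differ widely between them for reasons that were not tested. ADAM10, a protease that sheds CXCL16 and CX3CL1, stood at 26.9 to 36.8 FPKM in the knockdown table. It stood at 453 to 770.2 FPKM in the overexpression table. Levels below are therefore compared only within a table.

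The 9 chemokines covered a wide range of levels. In Lv3NC, CXCL16 (44.9 ± 3.46 FPKM; mean ± SD, n = 3 here and below), CXCL2 (43.6 ± 13.2 FPKM), CCL20 (40.3 ± 22.8 FPKM) and CXCL8 (35.7 ± 19.8 FPKM) formed the upper end, and neighbours in that order overlapped. CCL5 followed at 17.6 ± 4.82 FPKM, and its libraries overlapped those of CXCL8. CCL2 (2.69 FPKM, SD 0.80) and CX3CL1 (1.58 ± 0.406 FPKM) came next, each clear of its neighbours. CXCL10 and CCL28 were near the lower limit of the tables in every group. CXCL10 ranged from 0.07 to 0.72 FPKM and CCL28 from 0.03 to 0.27 FPKM over the 9 knockdown-table libraries. In bulk RNA, fewer expressing cells and less RNA per cell cannot be told apart for any of these genes.

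The overexpression control gave a sharper order. CCL20 led in Lv20NC at 205.8 ± 10.3 FPKM, clear of CXCL2 at 83.9 ± 7.07 FPKM, which was clear of CXCL16 at 54.6 ± 6.45 FPKM. CCL5 (43.5 ± 6.20 FPKM) overlapped CXCL16, and CXCL8 stood apart below them at 30.5 ± 2.24 FPKM. CX3CL1 (5.07 ± 0.486 FPKM) and CCL2 (1.43 ± 0.234 FPKM) were again lower. CXCL10 (0.12 to 0.59 FPKM) and CCL28 (0 to 0.65 FPKM over the 6 libraries) again did not reach 1 FPKM in any library. A gene was tested if 3 or more libraries of its table reached 1 FPKM, which 7 of the 9 chemokines did in both tables and CXCL10 and CCL28 in neither.

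**Figure D1:**
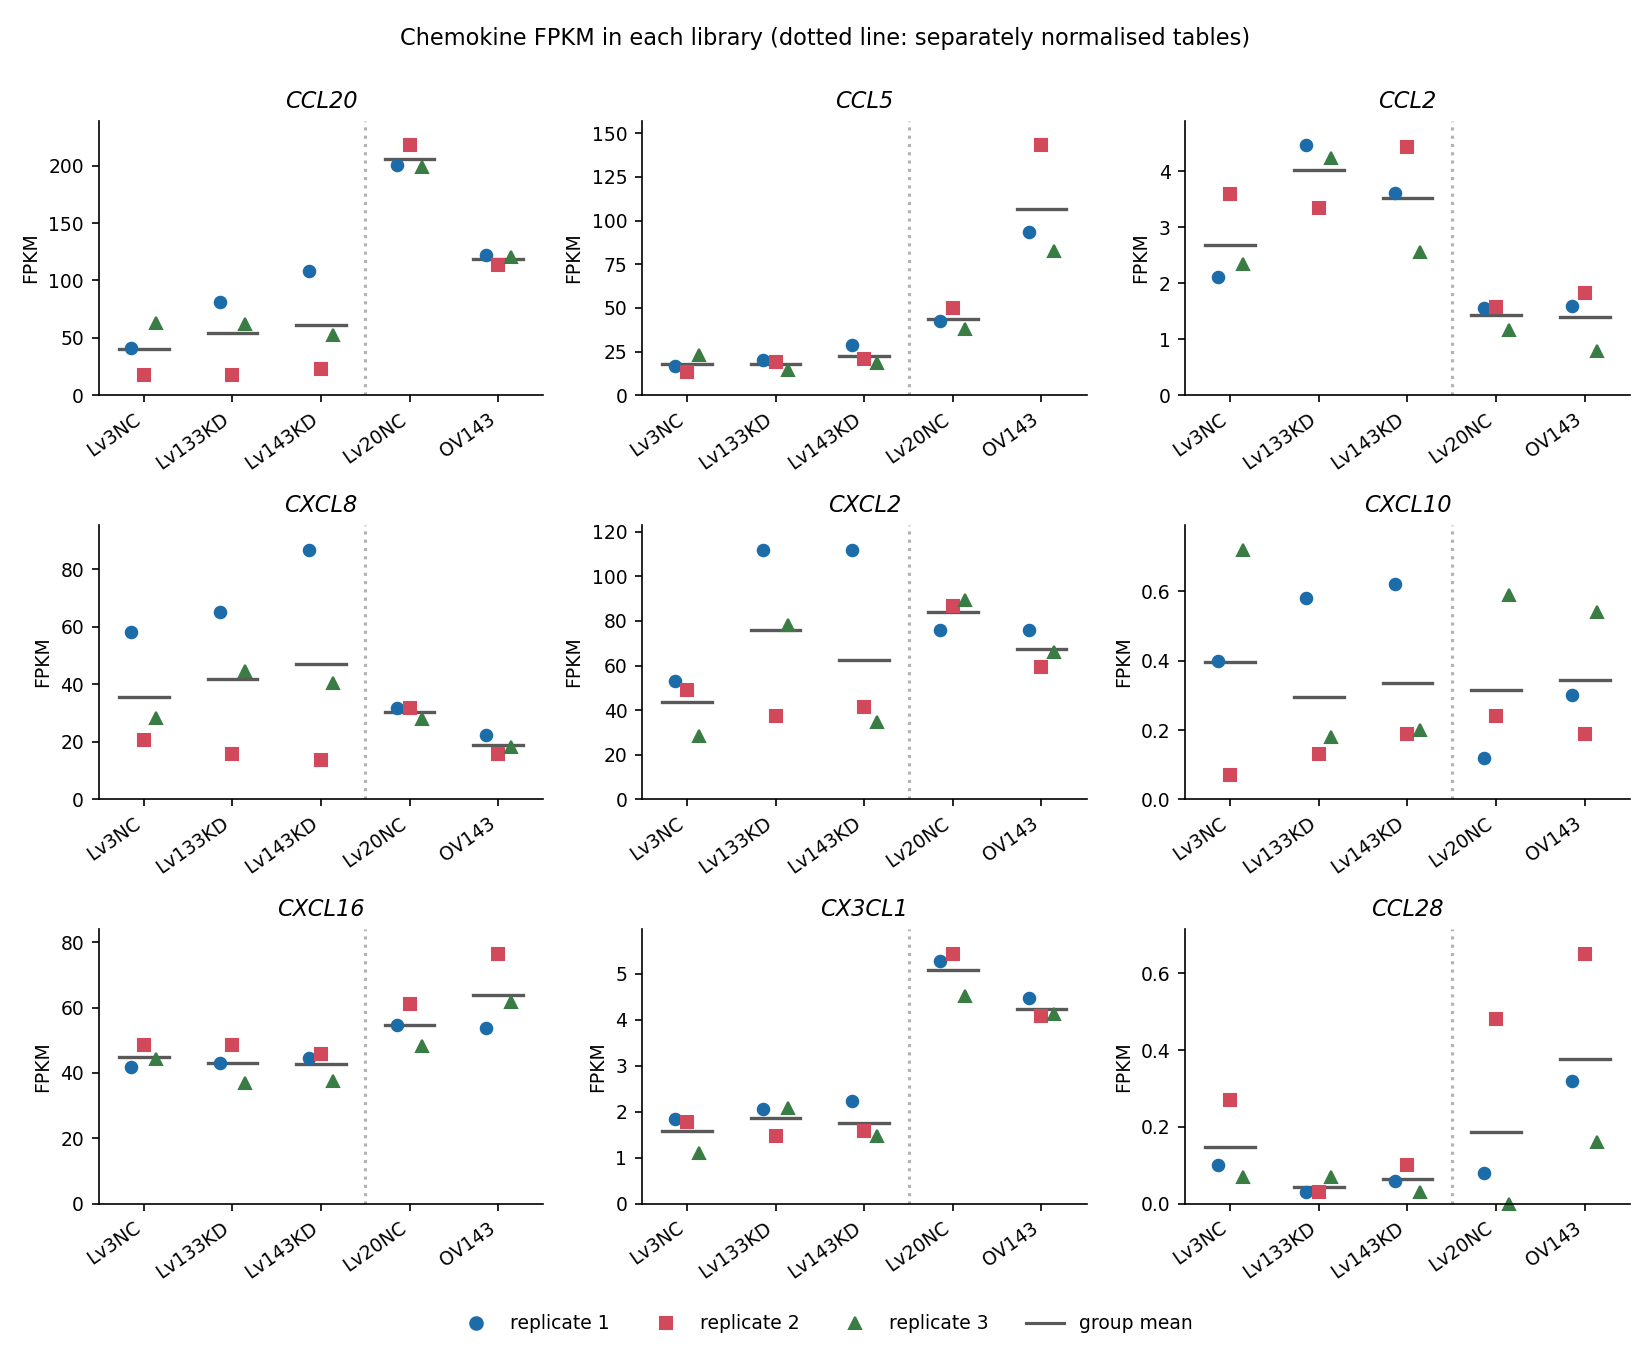
FPKM of the 9 chemokine genes (linear axes from 0) in each library by vector group, with 1 point per library shaped and coloured by replicate number and a bar at the group mean; the dotted line separates the 2 tables. In OV143, CCL20 (114 to 123 FPKM) and CXCL8 (15.7 to 22.55 FPKM) lie below all Lv20NC libraries and CCL5 (82.6 to 143 FPKM) above them, while replicate 2 of each knockdown-table group is lowest for CCL20 and CXCL8.

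The knockdown-table comparisons asked whether chemokine transcripts differ when a knockdown vector replaces the control vector. None of the 7 tested genes passed in Lv133KD or in Lv143KD. CCL20, the lymphocyte and dendritic cell attractant, was at 40.9, 17.2 and 62.7 FPKM in Lv3NC replicates 1 to 3. It was at 81.4, 18.0 and 62.5 FPKM in Lv133KD and at 108, 23.1 and 52.85 FPKM in Lv143KD. Replicate 2 was the lowest library of each group, and the 3 groups overlapped. On the log2(FPKM + 1) scale used throughout, the fold change was 0.34 (SE 0.70, limma adjusted p = 0.933) in Lv133KD and 0.51 (SE 0.70, adjusted p = 1.00) in Lv143KD.

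Of the neutrophil attractants, CXCL8 kept the same order of replicate numbers in every group, and CXCL2 did so for the highest library. CXCL8 was at 58.2, 20.7 and 28.2 FPKM in Lv3NC, at 65.1, 15.8 and 44.7 FPKM in Lv133KD and at 86.9, 13.8 and 40.3 FPKM in Lv143KD. Replicate 1 was highest and replicate 2 lowest in each of the groups, which overlapped. Its log2 fold changes were 0.14 (SE 0.69, adjusted p = 0.974) in Lv133KD and 0.17 (SE 0.69, adjusted p = 1.00) in Lv143KD. CXCL2 was at 53.2, 49.1 and 28.6 FPKM in Lv3NC, at 112, 37.3 and 78.1 FPKM in Lv133KD and at 112, 41.5 and 34.6 FPKM in Lv143KD. Replicate 1 was again highest everywhere, the lowest was replicate 2 in Lv133KD and replicate 3 in the other groups, and the groups overlapped. For CXCL2 the log2 fold change was 0.70 (SE 0.50, adjusted p = 0.926) in Lv133KD and 0.36 (SE 0.50, adjusted p = 1.00) in Lv143KD.

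CCL2, the monocyte attractant, had the smallest p of the 7 genes in Lv133KD. It was at 2.11, 3.60 and 2.35 FPKM in Lv3NC, at 4.46, 3.35 and 4.23 FPKM in Lv133KD and at 3.61, 4.43 and 2.55 FPKM in Lv143KD. Replicate 2 of Lv133KD and replicate 3 of Lv143KD fell within the control range, so both groups overlapped Lv3NC. In Lv133KD its log2 fold change was 0.46 (SE 0.20, unadjusted p = 0.0447, limma adjusted p = 0.926). When libraries were weighted by their estimated quality it was 0.69 and passed (adjusted p = 0.0229), so this result depended on the weighting. In Lv143KD it was 0.30 (SE 0.20, adjusted p = 1.00).

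CCL5, the T cell and monocyte attractant, was at 16.6, 13.3 and 22.8 FPKM in Lv3NC, at 20.2, 18.8 and 14.5 FPKM in Lv133KD and at 28.6, 20.5 and 18.3 FPKM in Lv143KD. The 3 groups overlapped. The log2 fold change was 0.04 (SE 0.22) in Lv133KD and 0.34 (SE 0.22) in Lv143KD, with adjusted p of 0.977 and 1.00. The membrane-bound chemokines varied least. CXCL16 kept within 37.0 to 48.6 FPKM over the 9 libraries, and its log2 fold changes were -0.07 in both knockdowns (SE 0.12 each). CX3CL1 ranged from 1.11 to 2.23 FPKM, with log2 fold changes of 0.16 and 0.10 (SE 0.16 each).

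Among all 11645 genes tested, limma called 0.0172% in Lv133KD and 0.0172% in Lv143KD, and 0 of the 7 chemokines. At an unadjusted p under 0.05 the fit had 1 chemokine in Lv133KD, CCL2, and 0 in Lv143KD, where the shares of all genes were 3.26% and 1.79%. Libraries with the same replicate number deviated together, so the number was also fitted as a block. That fit narrowed the standard error of CCL20 from 0.70 to 0.24 and that of CXCL8 from 0.69 to 0.20, and again called 0 of 7 genes in either knockdown, where it called 0.258% and 0.172% of all genes. With the block the unadjusted p was under 0.05 for CCL2 and CXCL2 in Lv133KD (adjusted p = 0.261 and 0.292; 16.5% of all genes) and for 0 chemokines in Lv143KD (5.74%). When the libraries numbered 3 were left out of the blocked fit, CCL5 passed in Lv143KD (log2 fold change 0.67, adjusted p = 0.0349). In Lv133KD and Lv143KD, 0 of the 7 genes had groups that did not overlap, against 8.02% and 4.14% of all genes. Both knockdowns are set against the same 3 Lv3NC libraries, so their fold changes are not independent of each other.

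Lv133KD was also compared directly with Lv143KD. No chemokine passed, with the block or without, and neither did any other gene (0% of 11645 in both fits). The unadjusted p was under 0.05 for 0 of 7 chemokines in both fits, and for 0.129% of all genes without the block and 1.79% with it. Groups did not overlap for 0 of 7 chemokines and for 2.66% of all genes. The largest differences were those of CXCL2, at 0.33 (95% interval -0.78 to 1.452), and CCL5, at -0.30 (-0.80 to 0.19), both on the log2 scale. For CXCL8 the difference was -0.03, with an interval from -1.59 to 1.53 that the block narrowed to -0.48 to 0.42. CCL5 was lower in Lv133KD than in Lv143KD in each of the 3 pairs of replicate numbers, although the groups overlapped.

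**Figure D2:**
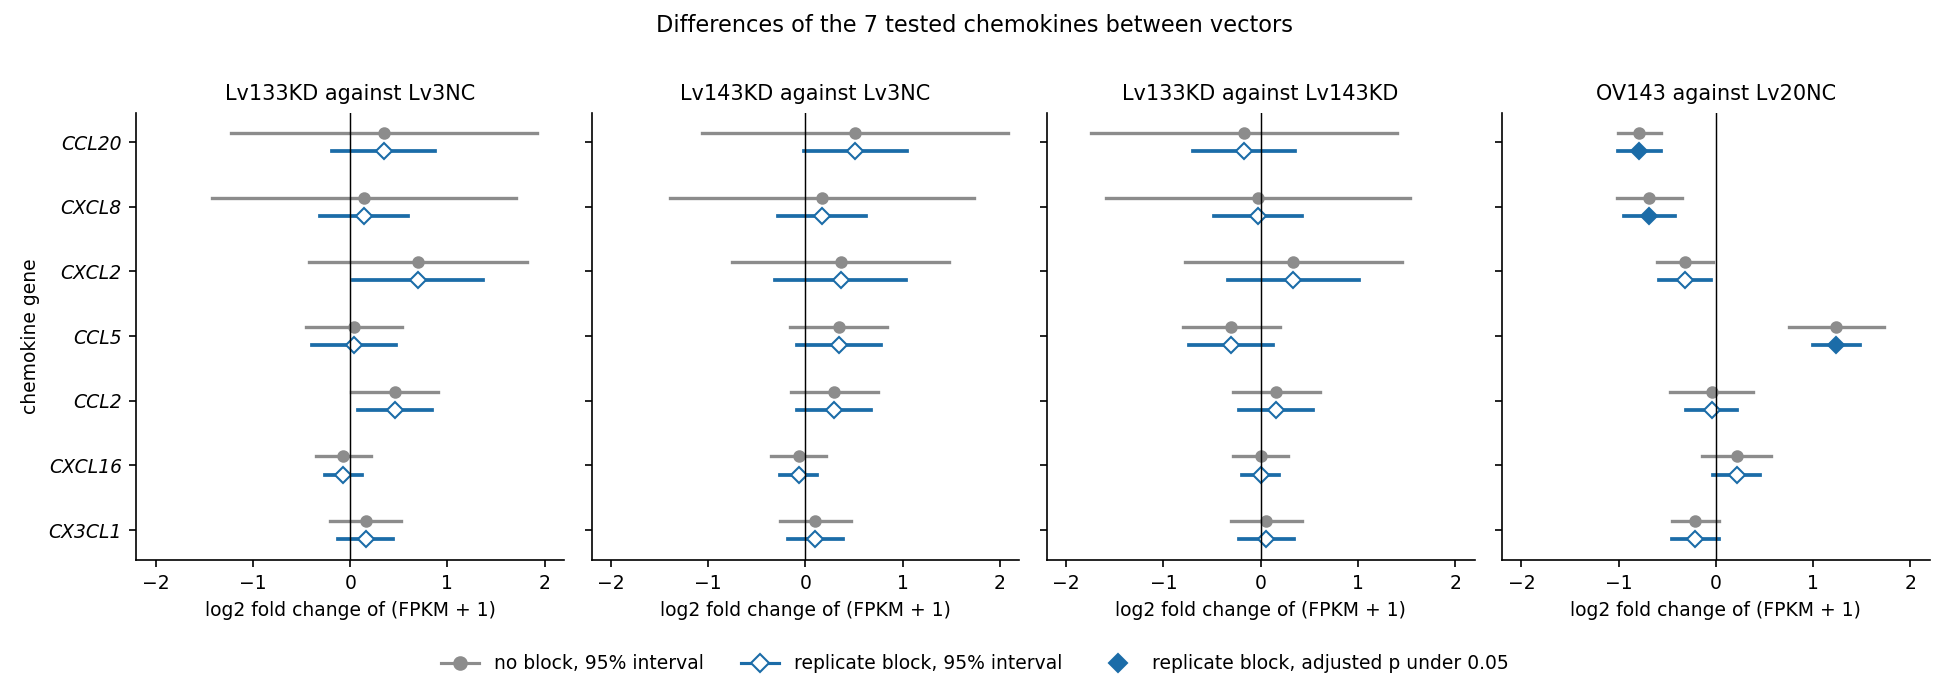
Log2 fold change of FPKM + 1 with its 95% interval for the 7 tested chemokines in the 4 comparisons, without the replicate block (grey circles) and with it (blue diamonds, filled where the adjusted p was under 0.05). The intervals of CCL20 and CXCL8 in the knockdown table shrink with the block but still reach 0, and the 3 filled symbols are CCL20, CXCL8 and CCL5 in OV143.

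How the spread of each gene divided between replicate number and vector differed between the tables. In the knockdown table, replicate number held 91.5% of the sum of squares of CXCL8 and 83.8% of that of CCL20 on the log2 scale, while vector held 0.770% and 5.84%. Over all genes tested the medians were 58.0% for number and 13.1% for vector. CXCL16 was also above the median for number, at 68.2%. The other 4 genes were below it, CXCL2 at 51.6%, CX3CL1 at 40.8%, CCL5 at 16.3% and CCL2 at 14.4%. CCL20, CXCL8 and CXCL2 were also among the most variable genes of that table. Their SDs over the 9 libraries were 0.94, 0.91 and 0.71 on the log2 scale, above those of 99.8%, 99.8% and 99.5% of the genes tested, where the median gene had 0.17. CCL20 averaged 19.4 ± 3.19 FPKM over the libraries numbered 2 of the 3 vectors (SD over vectors), against 59.3 ± 5.62 FPKM over those numbered 3 and 76.8 ± 33.9 FPKM over those numbered 1. CXCL8 averaged 16.8 ± 3.57, 37.7 ± 8.52 and 70.1 ± 15.0 FPKM in the same order. CXCL16 was highest in the libraries numbered 2, at 45.9 to 48.6 FPKM, against 41.7 to 44.7 FPKM in those numbered 1 and 37.0 to 44.4 FPKM in those numbered 3. What a replicate number marks is not given in the labels, so no test of these differences was made.

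**Figure D3:**
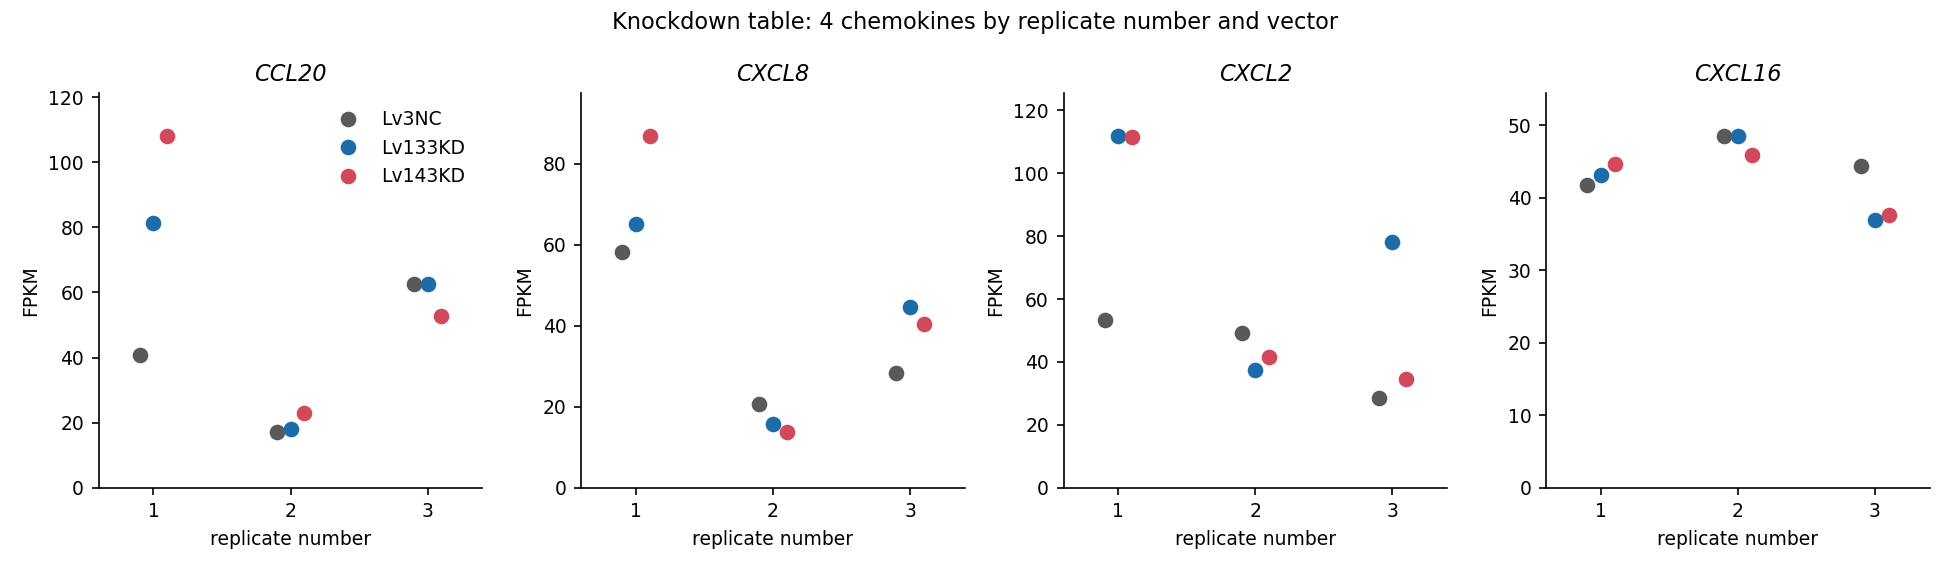
FPKM of CCL20, CXCL8, CXCL2 and CXCL16 in the knockdown table (linear axes from 0) by replicate number, with 1 point per library coloured by vector. The 3 libraries numbered 2 lie together at the bottom for CCL20 (17.2 to 23.1 FPKM) and CXCL8 (13.8 to 20.7 FPKM), whichever vector they carry.

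The overexpression comparison asked whether chemokine transcripts differ when the miR-143 overexpression vector replaces its control vector. With the replicate number as a block, CCL20 and CXCL8 fell and CCL5 rose in OV143. Without the block none of the 7 genes passed. The groups of these 3 genes did not overlap, as was so for 21.9% of all genes.

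CCL20 was at 200.5, 218 and 199 FPKM in Lv20NC and at 123, 114 and 120.1 FPKM in OV143. The 3 libraries of each group lay close together and the groups were far apart. The log2 fold change was -0.79, a 0.580-fold level (95% interval -1.004 to -0.57 without the block). The adjusted p was 0.00802 with the block and 0.0762 without, and CCL20 ranked 20 and 7 of 11506 genes by p. The block did not narrow its SE, which was 0.101 with it and 0.093 without. CCL20 thus remained the highest of the 9 chemokines in OV143 on average (119 ± 4.45 FPKM), but its libraries now overlapped those of CCL5.

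CCL5 was at 42.5, 50.1 and 37.8 FPKM in Lv20NC and at 93.7, 143 and 82.6 FPKM in OV143. Every OV143 library was above every control, and replicate 2 was the highest of both groups. The log2 fold change was 1.24, a 2.36-fold level (95% interval 0.75 to 1.73 without the block). The adjusted p was 0.00209 with the block and 0.124 without, at ranks 3 and 45 by p. OV143 replicate 2 is the library whose FPKM sum stood apart. Without it the log2 fold change of CCL5 was 1.01.

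CXCL8 was at 31.7, 32.0 and 27.95 FPKM in Lv20NC and at 22.55, 15.7 and 18.15 FPKM in OV143. Every OV143 library was below every control. The log2 fold change was -0.68, a 0.623-fold level (95% interval -1.01 to -0.35 without the block), and the adjusted p was 0.0218 with the block and 0.176 without, at ranks 97 and 106 by p.

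CXCL2, the other neutrophil attractant, did not pass. It was at 75.9, 86.5 and 89.4 FPKM in Lv20NC and at 76.1, 59.4 and 66.2 FPKM in OV143. The pair numbered 1 was level, and the other pairs were lower in OV143. Its log2 fold change was -0.32 (SE 0.12; adjusted p = 0.391 without the block and 0.183 with it). When the libraries numbered 1 were left out of the blocked fit, CXCL2 passed (-0.48, adjusted p = 0.0386). The membrane-bound CX3CL1 was at 5.27, 5.43 and 4.52 FPKM in Lv20NC and at 4.48, 4.08 and 4.12 FPKM in OV143. Its groups did not overlap, but they were separated by only a narrow gap, and the log2 fold change of -0.21 did not pass (SE 0.10; adjusted p = 0.491 and 0.304).

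CXCL16, the other membrane-bound chemokine, was at 54.6, 61.1 and 48.2 FPKM in Lv20NC and at 53.8, 76.4 and 61.7 FPKM in OV143. The groups overlapped (log2 fold change 0.22, SE 0.15, adjusted p = 0.618 and 0.298). CCL2 was at 1.55, 1.58 and 1.16 FPKM in Lv20NC and at 1.59, 1.82 and 0.78 FPKM in OV143, with a log2 fold change of -0.04 (SE 0.18) whose sign turned when libraries were centred on their median gene (0.01). CXCL10 and CCL28 were not tested. When all genes were kept, their log2 fold changes in OV143 were 0.04 and 0.22 (adjusted p = 0.938 and 0.728).

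Of all 11506 genes tested, limma called 1.94% in OV143 with the block, 0.643% higher and 1.29% lower, against 3 of 7 chemokines, 1 higher and 2 lower. Without the block it called 0% of genes and 0 chemokines, while the unadjusted p was under 0.05 for 11.3% of genes and for 4 of 7 chemokines, CXCL2 being the fourth. With the block the unadjusted p was under 0.05 for 19.9% of genes and for the same number of chemokines, 4 of 7. Of all genes, 21.9% had groups that did not overlap, 8.96% higher and 12.9% lower, as had 4 of 7 chemokines, CCL5 higher and CCL20, CXCL8 and CX3CL1 lower. Without OV143 replicate 2 and without the block, 4.48% of genes passed and so did CCL20 (log2 fold change -0.76, adjusted p = 6.16e-04), CCL5 (1.01, 8.60e-04) and CXCL8 (-0.57, 0.0125). OV143 then has 2 libraries. With the block, the calls of CCL20, CCL5 and CXCL8 also held without the libraries of any 1 number, with adjusted p of at most 0.0190. Only 2 pairs then remain, so the spread is largely borrowed from all genes. The full blocked fit of OV143 has 3 pairs, and there too much of the spread of each gene is borrowed.

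**Figure D4:**
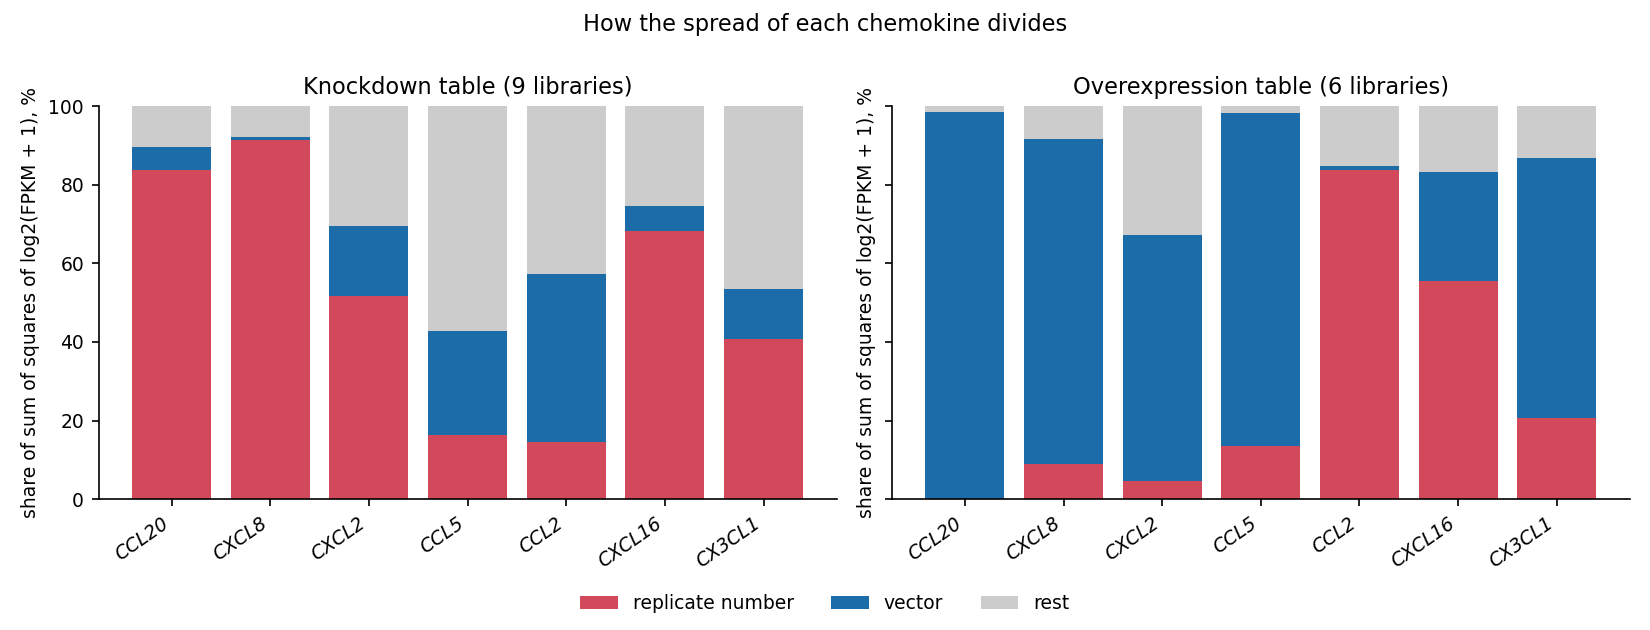
Share of the sum of squares of log2(FPKM + 1), in percent, that goes with replicate number, with vector and with neither, for the 7 tested chemokines in each table. For CCL20 replicate number holds 83.8% in the knockdown table, and vector holds 98.3% in the overexpression table.

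In the overexpression table vector held most of the spread of 5 of the 7 genes. It held 98.3% of the sum of squares of CCL20, 84.7% of that of CCL5, 82.7% of that of CXCL8, 66.2% of that of CX3CL1 and 62.4% of that of CXCL2, where the median gene had 18.9%. Replicate number held 0.0742%, 13.5%, 8.99%, 20.6% and 4.71% of the same genes, against a median of 53.1%. For CCL2 and CXCL16 most of the spread went with number, at 83.8% and 55.6%. These shares describe the same values as the tests above.

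Markers of other cell types were compared beside these changes. The summed level of the 9 leukocyte markers found in the overexpression table was 27.9 to 32.5 FPKM in Lv20NC and 31.2 to 41.1 FPKM in OV143, most of it from AIF1, and the fibroblast sum was 2.19 to 2.56 and 2.52 to 2.88 FPKM. The endothelial sum was 6.82 to 7.10 and 5.31 to 6.86 FPKM. The most abundant fibroblast marker was COL1A1, at a mean of 3.07 FPKM over the libraries of the 2 control groups, Lv3NC and Lv20NC. CDH5 (7.02 FPKM) and PECAM1 (1.84 FPKM) led the endothelial markers on the same measure. These means pool the 2 separately normalised tables, so they only rank markers and cannot be set beside the sums of either table. CD163, DCN and PDGFRA, other members of the leukocyte and fibroblast lists, were at 0.04 FPKM or less in every library. In the knockdown table the leukocyte sum was 18.2 to 18.9 FPKM in Lv3NC, 13.8 to 15.1 FPKM in Lv133KD and 12.99 to 16.5 FPKM in Lv143KD. The part of these markers in the chemokine values was not tested.

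Transcripts of chemokine receptors in general, not only of those for the 9 chemokines, were scarce. Of 17 chemokine receptor genes found in the knockdown table and 12 in the overexpression table, CCR7, the receptor that guides cells toward lymph nodes, was the 1 that passed the filter on low values in either. The CCL20 receptor CCR6 did not exceed 0.02 FPKM in the knockdown table. CCR7 was at 0.88, 1.5 and 1.38 FPKM in Lv20NC and at 2.27, 3.16 and 1.90 FPKM in OV143, and its groups did not overlap. Its log2 fold change of 0.61 passed with the block (adjusted p = 0.0427) and not without it (0.262). In the knockdown table it did not pass, at -0.51 in Lv133KD and -0.12 in Lv143KD. Among the decoy receptors, which take up chemokines without signalling through G proteins, ACKR3 was the 1 of 5 that was tested. It was at 9.24 to 14.8 FPKM over the knockdown table and at 15.2 to 22.5 FPKM over the overexpression table, and did not pass in any comparison.

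Other named chemokine ligands that had a row were low. Of 29 ligands listed for comparison, 17 were found in the knockdown table and 13 in the overexpression table. The level of the rest is unknown, among them AMCF-II, which lies 147 kb from CXCL2 and is in neither. Of those found, 4 and 5 were tested, with 0 passing in any comparison with the block or without. CCL4, a chemokine for monocytes and T cells, was at 2.07, 2.09 and 0.69 FPKM in Lv20NC and at 2.45, 6.69 and 2.42 FPKM in OV143. Its groups did not overlap, but its log2 fold change of 0.83 did not pass (SE 0.37; adjusted p = 0.450 without the block and 0.0537 with it). It passed in each of the 3 blocked fits that left out 1 number (adjusted p of at most 0.00741), and without OV143 replicate 2 and without the block its log2 fold change was 0.45 (adjusted p = 0.259). The genes listed for shedding and trimming, proteases together with regulators such as the inhibitors TIMP1 and TIMP3, were all expressed. Of 8 such genes, among them ADAM10, ADAM17 and DPP4, 0 passed in any of the 4 comparisons, and ADAM10 and ADAM17 differed in OV143 by 0.24 and -0.14 on the log2 scale (SE 0.18 and 0.14).

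NF-kB subunits, kinases and inhibitors had lower values in OV143, and 2 of them passed with the block. Of 15 such genes, 15 had a log2 fold change below 0, or 14 when libraries were centred on the median gene. Their median was -0.37, where 54.2% of all genes were below 0 with a median of -0.02. The 2 calls of 15 stand beside 1.94% of all genes called with the block. Groups did not overlap for 7 of the 15 and for 21.9% of all genes. TNFAIP3, a deubiquitinase that ends NF-kB signalling, was at 48.7, 45.2 and 57.5 FPKM in Lv20NC and at 36.1, 16.0 and 27.3 FPKM in OV143. Every OV143 library was below every control (-0.97 on the log2 scale; adjusted p = 0.256, and 0.0205 with the block). Without OV143 replicate 2, whose FPKM sum stood apart, the log2 fold change of TNFAIP3 was -0.66. BCL3, a nuclear cofactor of NF-kB, fell from 11.3 ± 1.63 to 7.31 ± 0.401 FPKM (-0.56, adjusted p = 0.0359 with the block and 0.202 without). BCL3 lost the blocked call once the libraries numbered 3 were left out (0.0593). Its log2 fold change was -0.60 without OV143 replicate 2. NFKBIA, the inhibitor that NF-kB itself induces, was at 126 ± 14.5 and 96.7 ± 11.03 FPKM and did not pass (-0.37, adjusted p = 0.137 with the block), though it did once the libraries numbered 1 or those numbered 2 were left out of the blocked fit (0.0184 and 0.00175). In Lv133KD and Lv143KD, 9 of the 15 genes were higher and 6 lower, with medians of 0.01 and 0.03, and 0 passed. Of all genes, 52.3% and 44.2% were higher. The counts moved with scaling, to 6 higher and 9 lower in Lv133KD with median centring and to 11 and 4 in Lv143KD with quantile scaling.

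The list upstream of NF-kB holds cytokines, receptors and intracellular signalling proteins such as MYD88. Of its 14 tested genes, 11 were lower in OV143 with a median of -0.19, and IL1A was the 1 that passed. IL1A, an alarm cytokine of epithelial cells, was at 52.2, 53.0 and 65.0 FPKM in Lv20NC and at 38.5, 23.7 and 35.1 FPKM in OV143. Its groups did not overlap (-0.81 on the log2 scale; adjusted p = 0.212, and 0.0179 with the block). Without OV143 replicate 2 the log2 fold change of IL1A was -0.61. Of 7 listed factors of mRNA decay or stability, 6 were lower in OV143, or 4 when centred on the median gene. Most of these factors act on AU-rich mRNAs, a class that includes chemokine transcripts, to speed or to slow their decay. ZC3H12A, a ribonuclease that degrades inflammatory mRNAs, fell from 12.8 ± 1.65 to 7.80 ± 1.58 FPKM (-0.66, adjusted p = 0.0163 with the block and 0.229 without), and lost the blocked call once those numbered 3 were left out (0.112).

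The interferon route, which drives CXCL10 and adds to CCL5 in many cells, showed no common direction. Of 12 genes 5 were higher and 7 lower in OV143, with a median of -0.07, and 0 passed with the block or without. IRF1, a transcription factor of this route, was at 26.6 ± 3.53 FPKM in Lv20NC and 19.0 ± 2.44 FPKM in OV143 (-0.46 on the log2 scale; blocked adjusted p = 0.105). In the knockdown comparisons, 0 genes of the receptor, protease, NF-kB, upstream, interferon and mRNA decay lists passed with the block or without, against 0.258% and 0.172% of all genes with the block in Lv133KD and Lv143KD.

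**Figure D5:**
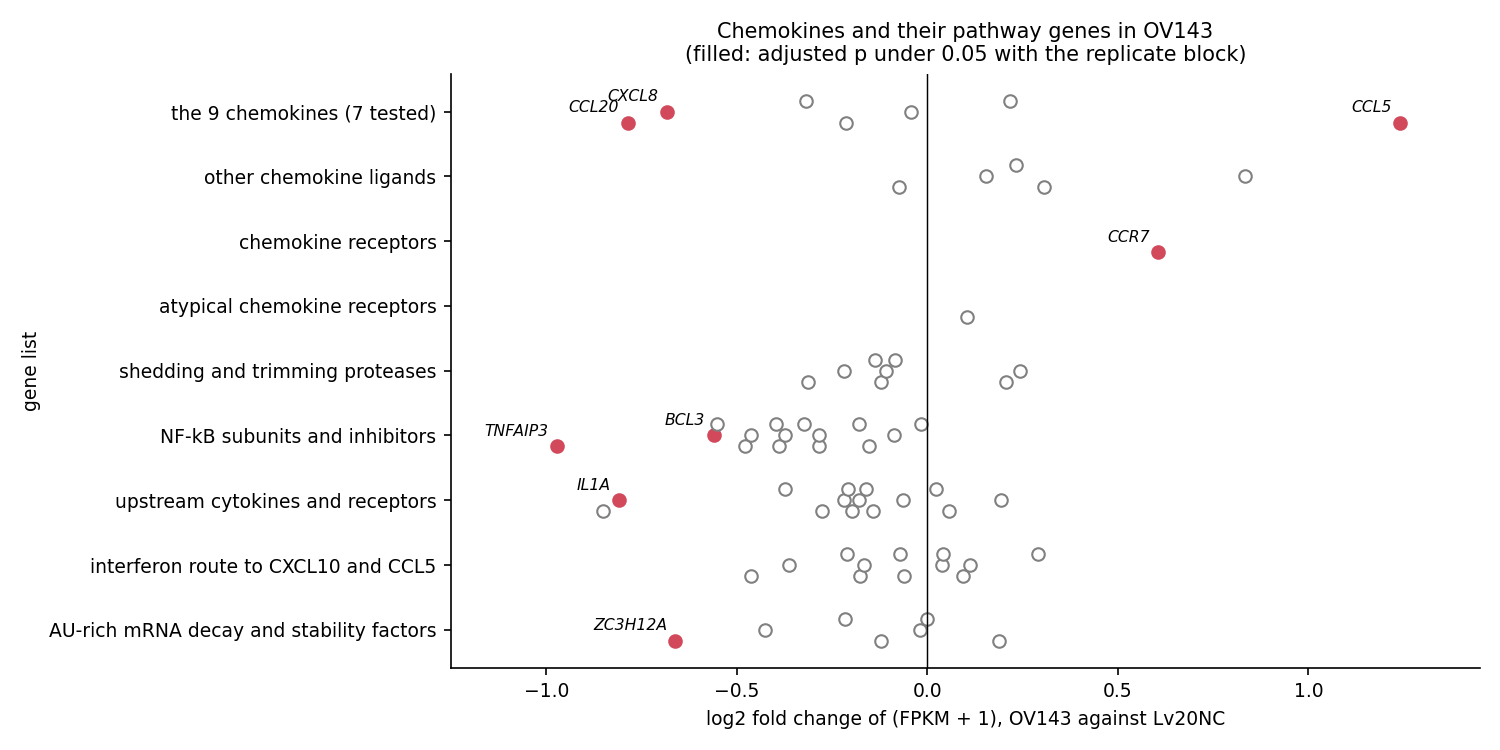
Log2 fold change of FPKM + 1 in OV143 against Lv20NC for the tested chemokines and for 8 lists of related genes, 1 point per gene (vertical offsets only separate points), filled and named where the adjusted p was under 0.05 with the replicate block. Points of the NF-kB list all lie below 0 (14 of 15 once libraries are centred on the median gene), with TNFAIP3 lowest at -0.97, while the interferon list lies on both sides.

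Genes whose pattern over libraries was most like that of a chemokine were sought among 11141 others tested in both tables. Likeness was the lower of 2 Pearson correlations of log2(FPKM + 1), over the 9 and the 6 libraries, given as a description because libraries of a table share vectors and replicate numbers. CXCL8 had the closest companion, the transcription factor FOXO1 (r = 0.98 in both tables), followed by the kinase MAST4. For CCL20 the genes were GABRP, a GABA receptor subunit (0.91 and 0.92), the growth factor BMP2 (0.92 and 0.90) and the syntaxin STX11 (0.96 and 0.90). For CCL5 the chitinase-like protein CHI3L1 came first (0.90 and 0.94). CXCL16 was closest to PPP2R3B (0.95 and 0.94), CX3CL1 to DIEXF (0.93 and 0.97) and CCL2, at a looser 0.88 and 0.82, to the antiviral adaptor MAVS.

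CXCL2 was most like a gene of its own neighbourhood. LOC100525396, a protein-coding gene without a proper name, lies on chromosome 8 from 70054796 to 70057033, 100 kb from CXCL2 and between it and CXCL8. It followed CXCL2 at r = 0.98 over the 9 libraries and 0.96 over the 6. It lay at 25.5 to 109.6 FPKM in the knockdown table, where CXCL2 lay at 28.6 to 112 FPKM. In the overexpression table it lay at 129 to 208 FPKM, above every CXCL2 value there (59.4 to 89.4 FPKM). In OV143 its groups overlapped and it did not pass (log2 fold change -0.40, adjusted p = 0.363 without the block and 0.158 with it). It passed when the libraries numbered 1 or those numbered 2 were left out of the blocked fit (0.00542 and 0.00316). Whether reads are shared between these neighbouring genes, or with a pseudogene 9.28 kb from CXCL2, was not tested, so the level of CXCL2 is uncertain to that extent. IL1A was also close to CXCL2 (0.99 and 0.94), as was the ribonuclease gene ZC3H12C (0.95 and 0.94).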

How the data were processed

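Total RNA from IPEC-J2 cells was sequenced in 15 libraries, 3 per group. Per the file headers, the authors deposited FPKM values for each gene and library, in a table of 9 knockdown libraries and another of 6 overexpression libraries. The build, Sscrofa11.1, is from the submitters' processing notes. For the aligner, the counter, the annotation version and the use of strand, nothing was given in the sources used here. Symbols and coordinates came from a RefSeq gene table of that build, which held 18618 of 19000 and 16949 of 17001 genes.

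Each table was fitted whole as log2(FPKM + 1) with limma 3.58.1 in R 4.3.3, for genes reaching 1 FPKM in 3 or more libraries. Empirical Bayes was trended, tests were two-sided, p-values were Benjamini-Hochberg adjusted over every gene tested, and a gene passed under 0.05. The pseudocount of 1 understates changes of low genes. Intervals are 95% and unadjusted. The planned main model had no replicate block. Deviations from group means of same-numbered libraries correlated at 0.27 to 0.85 (9 knockdown pairs) and 0.23 to 0.72 (3 overexpression pairs). Each was over 0.1, so the numbers were taken to pair the libraries and blocked values stand beside results they change. Unlike-numbered libraries correlated at -0.87 to 0.38 (18 knockdown pairs) and -0.68 to 0.54 (6 overexpression pairs). Lv20NC replicate 3 with OV143 replicate 1, at 0.54, exceeded the overexpression pair numbered 1, at 0.23. The pairing behind the blocked OV143 calls is therefore not clear-cut. What the numbers stand for is not in the labels. The model was run on simulated data with independent noise in each library and no effect of replicate number. That run therefore cannot show how the block behaves on these libraries. No 2 libraries were identical.

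The chemokines, gene lists and naming rule were chosen with earlier results of these data known. The rule named all 9 chemokines, the list genes that passed (up to 4 a list), the 3 most abundant genes of each list and the 3 genes most like each tested chemokine; some of these are not reported here. EPCAM, PTPRC, CD163, DCN, PDGFRA, CCR6, ADAM17, DPP4 and IRF1 were named outside that rule, with values in view. Alternatives were a replicate block, another pseudocount, no filter, quantile and median scaling, library weights, only the groups compared and leaving out each library. Combinations with the block were added after seeing the data. The weights stopped before convergence in the overexpression table.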

Additional observations from a re-analysis of the deposited data

How the results depend on the processing

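The direction of CCL20, CXCL8 and CCL5 in OV143 held under every alternative run, and the calls rest on the replicate block, the library weights or the omission of OV143 replicate 2. Without the block, 2, 2, 0 and 0 genes passed in Lv133KD, Lv143KD, the direct knockdown comparison and OV143, and 0 chemokines. Leaving out 1 library gave 0 genes in each knockdown comparison and 0 to 511 genes with 0 to 3 chemokines in OV143. With the block, 30, 20, 0 and 223 genes passed, and 3 chemokines in OV143. The block with quantile scaling gave 34, 23 and 257 genes in Lv133KD, Lv143KD and OV143, with median centring 36, 20 and 167, and with a pseudocount of 0.1 30, 20 and 186, each with 3 chemokines in OV143. The block without number 1 gave 0, 1 and 683 genes (4 chemokines in OV143), without number 2 14 in Lv133KD and 1454 in OV143 (3 chemokines), and without number 3 72, 60 and 278 (1 chemokine in Lv143KD, 3 in OV143). Without the block, no filter gave 1 gene in each knockdown, median centring 0, 1 and 2, quantile scaling 6 in OV143, and only the groups compared 0 in each knockdown. Library weights gave 205, 70 and 2650 genes, with 1 chemokine in Lv133KD and 4 in OV143. Weights with the block gave 65, 66, 3 and 6460 genes in the order above and 7 chemokines in OV143. The weights of the overexpression table had stopped before convergence, and this combination was at first dropped after its output was seen and then put back.

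Signs turned for changes that had not passed with or without the block. In Lv133KD against Lv143KD, CXCL16 was -0.0101 with quantile scaling and -0.0417 with median centring, each with or without the block, -0.0904 with weights and -0.0372 with the block without number 2. There CX3CL1 was -0.0454 and CXCL2 -0.0580 with weights, CCL2 -0.0835, CX3CL1 -0.0735 and CXCL2 -0.0881 with block and weights, CCL2 -0.0379, CX3CL1 -0.0728 and CXCL2 -0.0732 with the block without number 3, and CXCL8 0.16 without number 1. In Lv133KD, CCL5 was -0.0753 and -0.17 with the block without number 1 and 2, CX3CL1 -0.0338, CXCL16 0.0241 and CXCL8 -0.11 without number 3, and CXCL8 -0.0659 with weights. In Lv143KD, CXCL16 was 0.0601 with weights and 0.00840 with the block without number 3, and CXCL8 -0.0278 without number 1. In OV143, CCL2 was 0.0144 with median centring, with or without the block, and 0.0754 with the block without number 3. The cause was not tested.

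Leaving out 1 library moved some uncalled log2 fold changes across 0. In the direct comparison CCL2 ranged from -0.00395 to 0.30, CCL20 from -0.73 to 0.47, CX3CL1 from -0.0174 to 0.18, CXCL16 from -0.0900 to 0.10, CXCL2 from -0.0108 to 0.85 and CXCL8 from -0.70 to 0.58. In Lv133KD CCL20 ranged from -0.16 to 0.99, CCL5 from -0.13 to 0.24, CXCL16 from -0.16 to 0.0312 and CXCL8 from -0.28 to 0.71. In Lv143KD CCL20 ranged from -0.0193 to 1.07, CX3CL1 from -0.0360 to 0.18, CXCL16 from -0.12 to 0.0155, CXCL2 from -0.15 to 0.68 and CXCL8 from -0.44 to 0.85. In OV143 CCL2 ranged from -0.17 to 0.16. Read depth is unknown, so the counting error of the low genes CCL2, CX3CL1, CXCL10 and CCL28 could not be set.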
